A study of Caenorhabditis elegans with 4 samples.

Results

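The genes pid-2, pid-3, pid-4 and pid-5 of the Caenorhabditis elegans piRNA pathway were examined in gonads lacking cde-1. They are 4 of the 7477 genes that had a named probe on the array, chosen by symbol and not by any measured value. Each was represented by 1 probe, and all 4 genes had a ratio on all 4 arrays, so all 4 were among the 2222 genes tested. The pid-2, pid-3 and pid-4 genes lie on chromosome I and pid-5 lies on chromosome V.

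piRNAs are short RNAs of the germline that guide the Argonaute protein PRG-1 to foreign and transposon-derived transcripts. Precursors are transcribed gene by gene, bound and trimmed, and a target recognised by PRG-1 is then used as a template for secondary small RNAs (22G RNAs), which carry the silencing. PID-3 is an RNA-binding subunit of PETISCO, a complex that binds the piRNA precursors. PID-2, PID-4 and PID-5 act after target recognition in perinuclear granules: PID-2 binds PID-4 and PID-5, both of which carry a Tudor-type domain, and PID-5 also holds a domain that resembles an aminopeptidase. The deleted gene, cde-1, encodes a uridylyltransferase that adds uridines to 22G RNAs bound by another Argonaute, CSR-1.

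Mutant worms carried the cde-1 allele tm1021 and control worms were the wildtype strain N2, and neither strain received a treatment named in the labels. RNA came from 250 dissected gonads a sample, from young adults or from aged adults, with 1 RNA sample for each stage and genotype. Each stage was hybridised on 2 arrays of 2 colours, 1 with the mutant cDNA in Cy5 (the Cy5-mutant array) and 1 with it in Cy3 (the Cy3-mutant array), which share the same cDNAs and count as 1 replicate. Whole gonads were pooled, so less RNA in each germ cell and fewer such cells cannot be told apart.

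Values are log2 ratios, likely of mutant over wildtype. Across the 2222 genes, which are not independent replicates, the deposited values of a stage correlated positively between its dye orientations (Pearson 0.65 for young and 0.44 for aged gonads), and they were therefore averaged without a change of sign. The labels do not state the direction of the deposited ratios. Titles read wildtype vs cde-1 for the Cy5-mutant arrays and cde-1 vs wildtype for the Cy3-mutant arrays, without naming a numerator. Read as ratios, the former would be wildtype over mutant and the latter mutant over wildtype. The direction is called likely from the number format. Every nonzero value of the Cy5-mutant arrays, and 0 values of the Cy3-mutant arrays, carried scientific notation. This would follow if the Cy3-mutant arrays had been inverted before deposit. With the opposite sign, higher would read as lower throughout. Had neither array of a stage been inverted, their average would measure the dye and not the genotype. On a deposited scale of log2 in place of log10, all sizes would be 3.32 times smaller.

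Ratios were present for 10775 to 12704 of 22562 probes on an array. The aged Cy5-mutant array stood apart by its spread, with an SD of 1.40 log2 units over its probes against 0.86 to 0.97 on the other 3. It also gave a ratio above 0 for 64.6% of the genes tested, against 45.5% to 56.0% on the others. Probes naming the same gene, over 12 genes with many probes, scattered with a pooled SD of 0.22 and 0.44 on the young adult arrays. On the aged adult arrays the pooled SD was 0.66 and 0.44, Cy5-mutant array first in both stages. Whether these probes differ in sequence or repeat 1 sequence was not known here. No named probe represented cde-1, and none represented any of the markers of germline, sperm, somatic gonad, intestine or muscle, so neither the deletion nor the makeup of the dissected tissue was checked here.

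All 4 pid genes lay below 0 on both young adult arrays. Both young adult arrays were below 0 for 35.8% of the 2222 genes tested. In aged adults pid-3 and pid-4 lay above 0 on both arrays, a pattern met by 39.1% of genes, while pid-2 and pid-5 were above 0 only on the Cy5-mutant array. The highest aged mean of the group was that of pid-3, at 2.30 log2 units or 4.93-fold as deposited; it was 1.02 if neither array had been inverted. Over both stages none of the 4 genes passed the limma test, which called 0% of the 2222 genes in either direction at an adjusted p under 0.05. Unadjusted, p was under 0.05 for 61 higher genes (2.75%) and 11 lower ones (0.495%), and for 0 of the 4 pid genes.

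**Figure D1:**
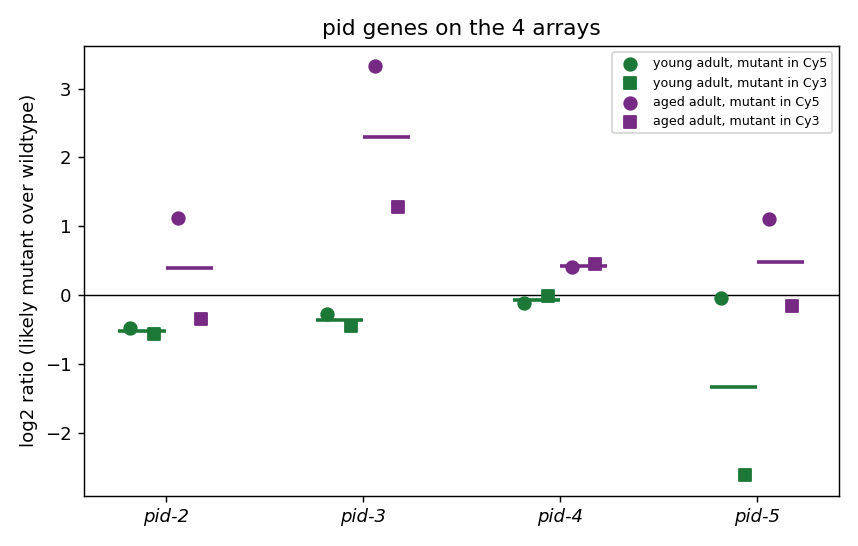
Log2 ratios (likely mutant over wildtype, vertical axis) of the 4 pid genes on each array. Circles are Cy5-mutant arrays and squares Cy3-mutant arrays, green for young and purple for aged adults, and each bar is the mean of the 2 arrays of a stage; all 8 green points lie below 0, and the highest purple point is pid-3 at 3.32.

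The PETISCO subunit pid-3 had log2 ratios of -0.27 and -0.46 in young adults, the Cy5-mutant array being given first here and in the genes that follow. On the aged adult arrays its ratios were 3.32 and 1.28. Both young values were below both aged values, so the stages did not overlap. Stages without overlap, in either direction, were found for 60.8% of all genes tested. The young mean of -0.36 had a spread of 0.13 (SD of 2 arrays), and the aged mean of 2.30 had a spread of 1.44. The aged mean was higher than that of 98.7% of all genes tested, and the young mean higher than that of 29.7%. Over both stages the mean was 0.97 ± 0.75 (limma SE, n = 2 stages), with a 95% interval from -0.91 to 2.85 and an adjusted p of 1 by limma. Without the wide-spread aged array the mean was 0.46, and leaving out its partner gave 1.48.

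The other measured PETISCO gene was tost-1, whose product replaces PID-1 in the complex for a role outside the piRNA pathway. Its ratios were 0.13 and -0.14 in young and 0.13 and 0.0057 in aged adults. These values straddle 0, and the mean over both stages was 0.031 ± 0.49 (limma SE, n = 2 stages), beside 0.97 ± 0.75 for pid-3. In aged adults the means were 0.068 for tost-1 and 2.30 for pid-3. The difference between these 2 genes of the same complex was not tested. The other 4 genes of that list (pid-1, erh-2, tofu-6 and ife-3) had no named probe.

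For pid-2, whose product lies at the surface of Z granules, perinuclear granules that adjoin P granules, the young adult ratios were -0.48 and -0.56. The aged adult ratios were 1.12 and -0.34. The young arrays were close to each other (SD 0.059 about a mean of -0.52), whereas the aged arrays had opposite signs (SD 1.03 about a mean of 0.39). Both young values were nevertheless below both aged values. The mean over both stages was -0.066 ± 0.53 (limma SE, n = 2 stages; adjusted p = 1 by limma), with a 95% interval from -1.38 to 1.25. Without the aged Cy3-mutant array the mean was 0.30, so its sign rested on that array.

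The Tudor-domain gene pid-4 had ratios close to 0 on all 4 arrays, and they repeated between orientations in both stages. They were -0.12 and -0.019 in young and 0.41 and 0.45 in aged adults. The 2 aged arrays differed by 0.047 log2 units, and 4.63% of genes had a smaller difference in that stage. The stages did not overlap, with a young mean of -0.069 and an aged mean of 0.43, the latter a 1.35-fold ratio. The mean over both stages was 0.18 ± 0.50 (limma SE, n = 2 stages; adjusted p = 1 by limma), with a 95% interval from -1.07 to 1.43.

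The second Tudor-domain gene, pid-5, had young adult ratios of -0.043 and -2.62. Its aged adult ratios were 1.11 and -0.15. The young arrays, which carried the same cDNAs, differed by 2.57 log2 units, and 98.9% of genes had a smaller difference in that stage. This was the only member whose stages overlapped, since the aged value of -0.15 lay below the young value of -0.043. Of all genes tested, 60.8% had stages that did not overlap, in either direction. The mean over both stages was -0.43 ± 0.62 (limma SE, n = 2 stages; adjusted p = 1 by limma), with a 95% interval from -1.99 to 1.13. Without the young Cy3-mutant array the mean was 0.22.

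**Figure D2:**
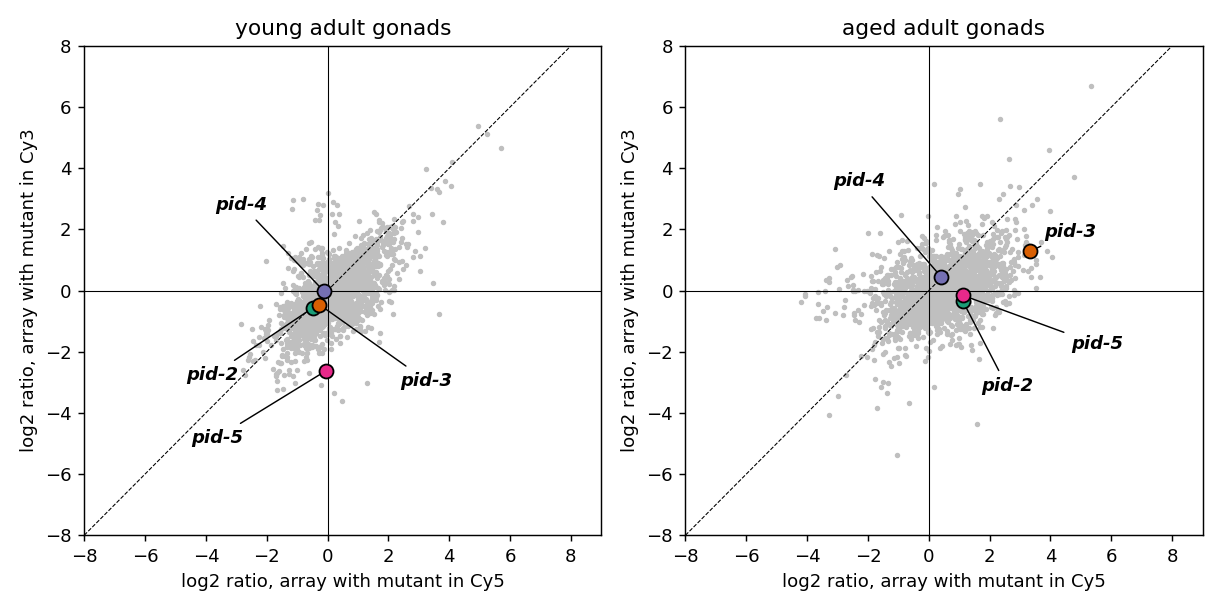
Log2 ratio on the Cy5-mutant array (horizontal) against the Cy3-mutant array (vertical) for the 2222 genes tested (grey) and the 4 pid genes (coloured), young adults on the left and aged adults on the right. On the dashed line both arrays give the same ratio; pid-4 sits near it in both stages, pid-5 lies far below it in young adults, and pid-2, pid-3 and pid-5 lie below it in aged adults.

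Ordered by the mean over both stages, the genes ran from pid-3 (0.97) through pid-4 (0.18) and pid-2 (-0.066) to pid-5 (-0.43), and neighbours in this order differed by less than the stage SD of at least 1 of the pair. In young adults the order was pid-4, pid-3, pid-2, pid-5; the arrays of pid-4, pid-3 and pid-2 did not overlap from one gene to the next, and those of pid-2 and pid-5 did. In aged adults pid-3 stood above the rest on both arrays, and the values of pid-5, pid-4 and pid-2 overlapped. The median of the 4 genes was -0.44 in young adults, beside 0.025 over all genes tested, and 0.45 in aged adults, beside 0.18. Centring each array on the median of its probes with a ratio lowered pid-3 from 2.30 to 2.21 in aged adults. It lowered pid-4 there from 0.43 to 0.34, and no pid gene changed sign on any array. On the young Cy3-mutant array, however, pid-4 moved from -0.019 to -0.0053. The median of the genes tested on that array was lower, at -0.096, so pid-4 lay above it. The sign of pid-4 on that array therefore depended on the median used.

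Young minus aged log2 ratios were below 0 for all 4 genes, at -2.66 for pid-3, -1.81 for pid-5, -0.91 for pid-2 and -0.50 for pid-4. Both young values were below both aged values for 3 of the 4 genes, as for 33.1% of all genes tested. Both young arrays were below 0 and both aged arrays above 0 for pid-3 and pid-4, as for 19.1% of all genes. For pid-2 and pid-5 the only value above 0 came from the wide-spread aged array, a pattern found in 7.83% of genes. Without that array both genes lay below 0 in aged adults as well, at -0.34 and -0.15. Leaving out 1 array kept the stage difference below 0 for all 4 genes but changed its size: without the aged Cy5-mutant array it was -1.64 for pid-3, -1.18 for pid-5 and -0.18 for pid-2, and without the aged Cy3-mutant array -3.69, -2.44 and -1.64. Without the young Cy3-mutant array the pid-5 difference was -0.52, and without the young Cy5-mutant array -3.096. The stage difference was not tested, because each stage had 1 RNA sample for each genotype.

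**Figure D3:**
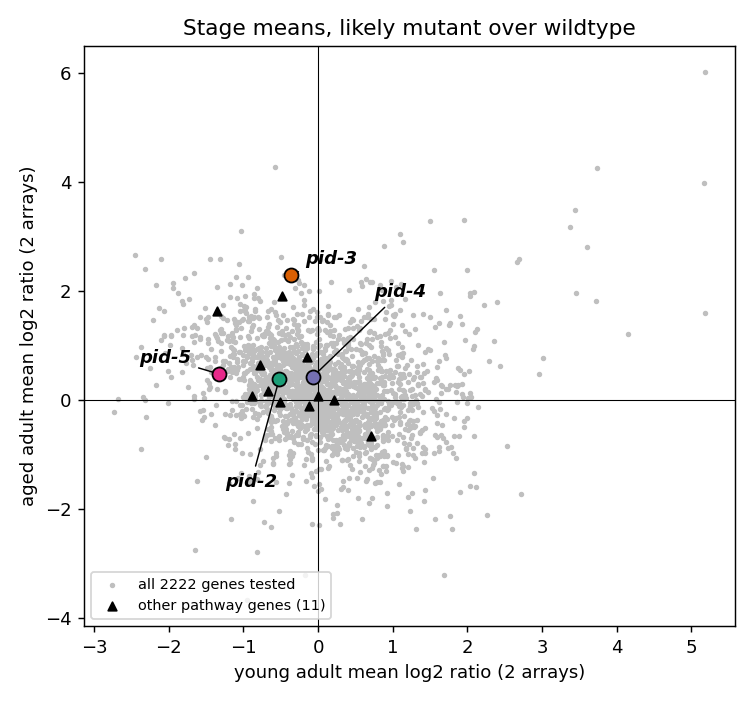
Mean log2 ratio of young adults (horizontal) against that of aged adults (vertical), each the mean of 2 arrays, for the 2222 genes tested (grey), the 4 pid genes (coloured circles) and 11 other genes of the pathway lists (triangles). All 4 pid genes fall in the upper left quadrant, which is below 0 for young and above 0 for aged means, and pid-3 is the highest of them at 2.30.

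Had neither array of a stage been inverted before deposit, the genotype effect would be 0.5 times the difference between its arrays. Under that reading pid-5 had 1.29 in young and 0.63 in aged gonads, a mean of 0.96 ± 0.24 (limma SE, n = 2 stages; adjusted p = 0.379 by limma). For pid-3 the mean was 0.56, for pid-2 it was 0.39 and for pid-4 it was -0.037. In aged adults pid-3 then stood at 1.02, pid-2 at 0.73 and pid-4 at -0.023. The group then no longer lay on one side of 0 in young adults, where pid-4 stood at -0.051 and the others at 0.042 to 1.29. An unadjusted p under 0.05 in the higher direction was reached by pid-5 under that reading, as by 11.5% of all genes tested, and 0 genes passed after adjustment.

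The other genes of the pathway were taken from 5 lists covering PETISCO, piRNA transcription and processing, effectors with Z granule and Mutator factors, P granules, and the CSR-1 pathway. Of the 111 listed symbols other than the 4 pid genes, 103 were current symbols of the annotation. Of the 111, 14 had a named probe, 12 had a ratio on at least 1 array and 11 were tested. Of these 11, 0 passed as higher and 0 as lower. Both young arrays were below 0 for 7 of the 11, beside the 35.8% of all genes, and both were above 0 for 2 (0 of the 4 pid genes and 37.4% of all genes). Their median was -0.49 in young adults and 0.076 in aged adults. The lists were drawn up with earlier results of these data known, and most of their genes were not measured here.

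In precursor processing, slfl-3 encodes a Schlafen-like subunit of the nuclease that cuts piRNA precursors at the 5′ end. Its ratios were -0.92 and -1.79 in young and 1.33 and 1.95 in aged adults. This is the same arrangement as in pid-3 and pid-4, with both stages on opposite sides of 0. The related slfl-4 had -0.43 and -0.59 in young and -0.13 and 0.056 in aged adults, closer to 0 in the older worms. For ints-11, the endonuclease subunit of the Integrator complex, the ratios were -0.88 and -0.47 in young and 0.16 and 0.16 in aged adults.

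Among effectors, simr-1, a Tudor-domain gene that links piRNA targets to the Mutator foci, had the arrangement of pid-3. Its ratios were -0.32 and -0.66 in young and 3.36 and 0.45 in aged adults, the highest again on the wide-spread array. For hrde-2, which is needed to load the nuclear Argonaute HRDE-1 with 22G RNAs, they were -0.92 and -0.64 in young and 0.70 and 0.58 in aged adults. The hrde-2 values repeated between orientations in both stages. In contrast, gtsf-1, which in C. elegans acts with the polymerase RRF-3 in 26G RNA production and not with piRNAs, had 0.58 and 0.84 in young and -0.55 and -0.75 in aged adults.

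The remaining listed genes showed no shared direction. The effector list gene enri-1 lay between -0.18 and 0.25 on the 4 arrays, and enri-2 had -0.86 and 0.56 in young and 1.50 and 0.078 in aged adults. The LOTUS-domain genes mip-1 and mip-2, which anchor P granule proteins, differed in size in young adults, with means of -0.12 and -0.89. The germ granule gene elli-1 had -1.69 and -1.63 in young adults and 2.32 on 1 aged array, and was not tested because the other aged array gave no ratio. The Z granule helicase gene znfx-1, whose product shares granules with PID-2, and hrde-4 had no ratio on any array.

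**Figure D4:**
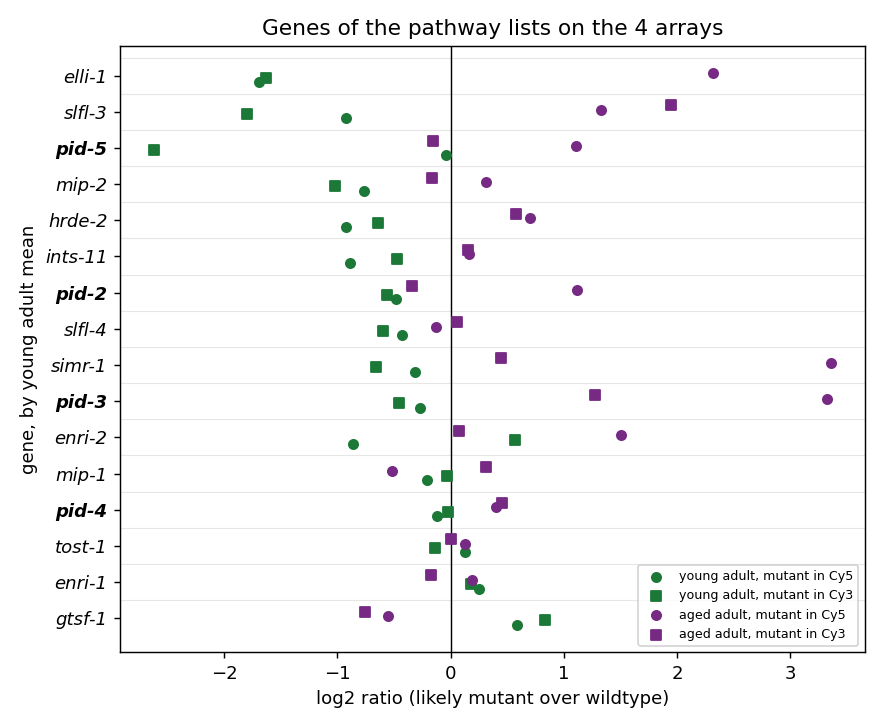
Log2 ratios (likely mutant over wildtype, horizontal axis) of the 16 genes of the pathway lists with a ratio on any array, sorted by the young adult mean, with the pid genes in bold. Colours and shapes are stage and dye orientation; most green points lie left of 0 and most purple points right of it, with gtsf-1 the other way round.

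The genes whose ratios were most like those of each pid gene were found by the Euclidean distance over the 4 arrays among the other 2221 genes. Nearest to pid-2 were mtrf-1L at a distance of 0.22, F54F2.7 at 0.29 and C28A5.1 at 0.30, where the median distance to all genes was 1.85. Nearest to pid-3 were W02G9.4 at 0.51, eas-1 at 0.59 and Y110A2AR.1 at 0.70, against a median of 3.53. W02G9.4 had a mean of 2.20 and eas-1 a mean of 2.63 in aged adults. Nearest to pid-4 were F01F1.2 at 0.13, W09G12.7 at 0.16 and T26E3.4 at 0.17 (median 1.65), and nearest to pid-5 were W02D7.6 at 0.80, F55A11.8 at 0.86 and C44B7.5 at 0.91 (median 2.98). Distances between the pid genes ran from 1.25 for pid-2 and pid-4 to 3.42 for pid-3 and pid-5, beside the medians of 1.65 to 3.53 to all genes.

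Chromosome neighbours were also compared, taking the closest gene with 4 ratios on either side of each pid gene. The neighbours of pid-2, natc-3 and Y48G1C.8, had young means of 0.68 and 1.63 and aged means of -0.0033 and -0.94. These means were opposite in sign to those of pid-2, but the aged arrays of natc-3 (-0.084 and 0.078) and of pid-2 itself disagreed in sign. The neighbours of pid-3, Y23H5B.5 and Y23H5A.2, had young means of 2.53 and 0.23 and aged means of -0.85 and -0.76, again opposite to pid-3. The young arrays of Y23H5A.2 disagreed in sign, at -0.15 and 0.62. Beside pid-4, F21F3.4 shared the signs of its means, at -1.14 and 0.53, while C46H11.2 was at 0.38 and -0.48. The aged arrays of both neighbours disagreed in sign, at 1.28 and -0.22 for F21F3.4 and 0.32 and -1.28 for C46H11.2. Both neighbours of pid-5, Y45G5AM.7 and algn-5, had means below 0 in young adults and above 0 in aged ones. Arrays disagreed in sign for Y45G5AM.7 in aged adults (0.94 and -0.26) and for algn-5 in young adults (-0.44 and 0.14). The neighbours were named by position and lie outside the naming rule used for the other genes.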

How the data were processed

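RNA of cde-1 mutant and wildtype gonads was compared on 4 Agilent arrays of 2 colours. The deposited table holds 1 value per probe and array; per the submitters' processing notes it was made with Agilent Feature Extraction, for which no version, dye normalization or background correction is given in the sources used here. The authors' deposited values were taken as log10 ratios, by that program's convention, and multiplied by 3.32 to give log2 ratios. Each column's median was 0, and exact zeros, 43.7% to 48.9% of 3 columns and 52.2% of the other, were left out as spots without a ratio. No counts or signals over background were used, so ratios from weak spots were not told apart from those of strong ones. Precision was also limited by having 1 RNA sample for each stage and genotype.

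Probes were named by gene identifier through the WBcel235 annotation: 7718 of 22562 had 1 symbol, 0 had several and 14844 were unnamed here, and 7691 of the named ones matched the annotation. No coordinates are printed, as the sources name no genome build for the array. Probes of a gene and then the 2 arrays of a stage were averaged. For the 2222 genes with 4 ratios, limma 3.58.1 (R 4.3.3) set the 2 stage means against 0 (lmFit, eBayes, Benjamini-Hochberg over all genes, threshold 0.05). The p-values measure the spread between 2 stages of different age. The fit was also run on simulated ratios, but their spread was set well below that of these data. That run therefore does not show how the test performs here. Named genes were the 4 members, the 3 genes nearest to each by Euclidean distance over the 4 arrays, and every gene of the pathway lists with a named probe. The members, lists and tests were chosen with earlier results of these data known. Alternatives covered scaling, zeros, orientation, probe level, filtering, the variance prior, the log base and leaving out each array.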

Additional observations from a re-analysis of the deposited data

Results flagged for a closer look

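Several genes had both young adult arrays on one side of 0 and both aged adult arrays on the other. The difference between stages was not tested for any of them, since each stage had 1 RNA sample for each genotype. Young minus aged log2 ratios were -2.66 for pid-3 and -0.50 for pid-4. In the pathway lists they were -2.996 for slfl-3, -1.42 for hrde-2, -2.39 for simr-1, -0.84 for ints-11 and 1.36 for gtsf-1. Among genes resembling a pid gene they were -2.475 for W02G9.4, -3.13 for eas-1 and -0.45 for F01F1.2, genes picked for resembling pid-3 or pid-4. Among chromosome neighbours they were 2.56 for Y48G1C.8 and 3.38 for Y23H5B.5. Opposed stages were frequent over all genes tested, at 19.1% with young values below and aged values above 0 and 13.7% the other way.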

How the results depend on the processing

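Over 14 settings beside the reported one, none of the 4 pid genes reached an adjusted p under 0.05 by limma; the range was 0.493 to 1 for pid-3, 0.379 to 1 for pid-5, 0.542 to 1 for pid-2 and 0.927 to 1 for pid-4. With 2 stages this does not show that the ratios are 0. The 0 calls over all genes became 13 after centring, 14 after scaling, 3 with stage as a random block, 1 when genes averaging under 0.2 in absolute ratio were dropped, and 9 to 19 leaving out 1 array, where the lone array was assumed to vary like a stage mean. With the Cy3-mutant arrays turned, ratios were 0.39 for pid-2, -0.037 for pid-4 and 0.96 for pid-5, each of the opposite sign to the reported value, while pid-3 kept its sign at 0.56. Leaving out 1 array gave -0.43 to 0.30 for pid-2, 0.46 to 1.48 for pid-3, 0.15 to 0.20 for pid-4 and -1.07 to 0.22 for pid-5; the cause was not tested. Young minus aged ratios turned that way were -0.93 for pid-3, -0.027 for pid-4 and 0.66 for pid-5; with a log2 scale they were -0.80 for pid-3 and -0.15 for pid-4, and after centring pid-4 had -0.44. Leaving out 1 array gave -3.69 to -1.64 for pid-3, -3.096 to -0.52 for pid-5, -1.64 to -0.18 for pid-2 and -0.55 to -0.45 for pid-4. The counts by sign were added after seeing the data. The 4 genes below 0 on both young arrays, and the 2 with opposed stages, became 0 with arrays turned. That follows from the turning itself, which gives opposite signs to 2 values of the same sign. Without the aged Cy3-mutant array the 2 genes above 0 in aged adults, and the 2 with opposed stages, became 4. The aged condition then rests on the Cy5-mutant array alone, which was above 0 for 64.6% of all genes tested. Opposed stages so counted include the 19.1% of all genes tested with both young arrays below and both aged arrays above 0. They also include the 7.83% that were above 0 only on the aged Cy5-mutant array. No paired analysis was possible because no label numbers the samples, and each ratio already holds both genotypes.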
